A study of Mus musculus with 6 samples.

Results

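S100 genes encode small calcium-binding proteins, and 10 of them were followed here: S100A2, S100A4, S100A6, S100A8, S100A9, S100A10, S100A11, S100A13, S100A16 and S100B. They were the rows of the expression table with exactly these symbols, 10 of the 23284 genes listed, and share a gene family. No measured value enters that rule. The table covers 6 subcutaneous tumours raised in athymic nude mice from STS26T, an established human line of malignant peripheral nerve sheath tumour. In 3 tumours (anti-ENG 1, 2 and 3) the mice received TRC105, an antibody to human endoglin, together with M1043, an antibody to mouse endoglin, and in 3 tumours (IgG control 1, 2 and 3) they received the matching IgG. Both groups were dosed at 10 mg/kg into the peritoneum, 2 times a week for 3 weeks, once tumours could be felt. All tumours derive from 1 cell line, and the hosts lack a thymus and so most T cells.

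S100 proteins carry a pair of EF-hand calcium-binding loops and mostly work as dimers. Inside the cell they bind partners such as annexins and myosin when calcium rises. Some are also released and act on receptors such as RAGE (AGER) and TLR4. Most of the genes sit close together on the long arm of 1 human chromosome, while S100B lies elsewhere. S100B is the member known from Schwann cells and is used in pathology, with SOX10, to recognise nerve sheath and melanocytic tumours. The comparison asks whether blocking endoglin, a co-receptor for TGF-beta family ligands, changes the RNA of these genes in the tumours.

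The tumours held much S100 RNA, but from few members. The 10 genes summed to 2533, 3904 and 2518 FPKM in the anti-ENG tumours, against 2612, 3007 and 2562 FPKM in the IgG control tumours (FPKM are fragments per kilobase of transcript, scaled to library size). This was 0.533, 0.875 and 0.551% of all FPKM in the anti-ENG tumours and 0.589, 0.727 and 0.624% in the IgG control tumours. S100A6 was the highest member in all 6 tumours and, with S100A4, S100A11 and S100A10, made up 83.3 to 90.2% of the sum. By mean over 6 tumours the order was S100A6 (1353 FPKM), S100A4 (519.8), S100A11 (399.8), S100A10 (229), S100A16 (164), S100A13 (98.3), S100A9 (38.1), S100A8 (27.5), S100A2 (25.8) and S100B (0.0315). Of the 9 neighbouring pairs in this order, 5 held in all 6 tumours: S100A6 over S100A4, S100A11 over S100A10, S100A10 over S100A16, S100A16 over S100A13, and S100A2 over S100B. S100A4 exceeded S100A11 in 4 tumours, S100A13 exceeded S100A9 in 5, S100A9 exceeded S100A8 in 5, and S100A8 exceeded S100A2 in 3, so the means of those neighbours did not separate them.

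**Figure D1:**
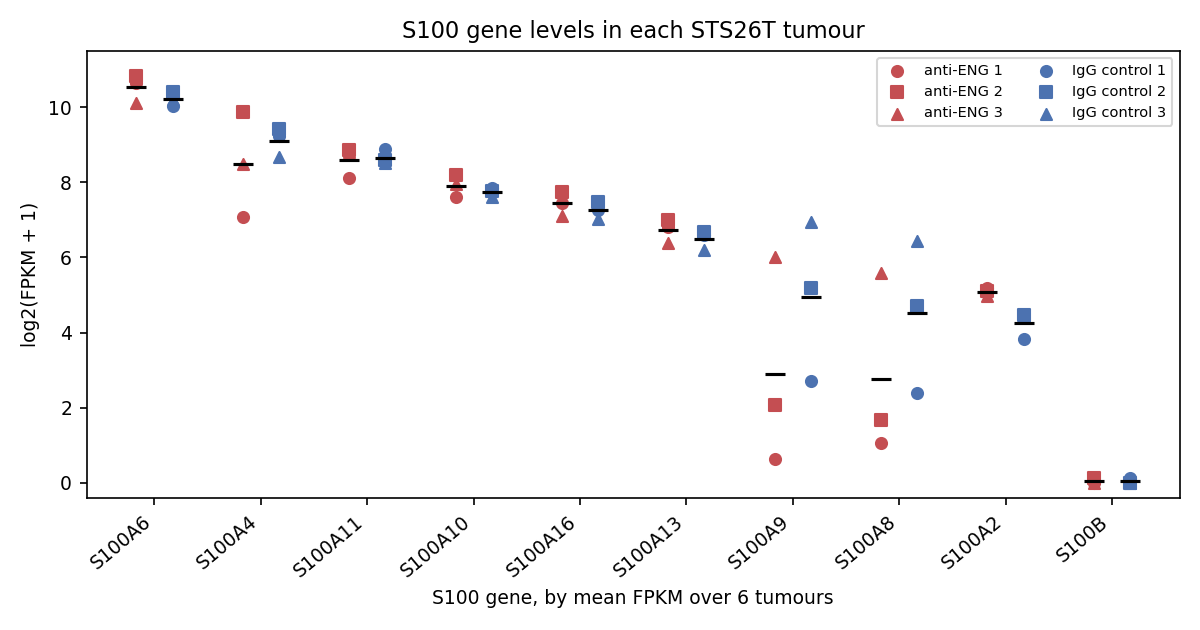
Level of each S100 gene in each tumour as log2(FPKM + 1), genes ordered by mean FPKM, with anti-ENG tumours in red on the left and IgG control tumours in blue on the right of each gene and the mean of each group as a black dash. S100A6 lies at the top in all 6 tumours, S100A8 and S100A9 are spread over several log2 units in both groups, and S100B lies at or near 0.

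How much a member varied between tumours differed widely. The coefficient of variation over 6 tumours was 124% for S100A9 and 122% for S100A8, and 99.7% of the 12586 tested genes, those averaging 1 FPKM or more, varied less than either. It was 54.2% for S100A4 (95.3% of genes varied less) and 33.5% for S100A2 (86.8%). The other 5 of the 9 members above that level lay between 15.9% for S100A10 and 23.1% for S100A6, where the median of the tested genes was 16.1%. The extreme tumour was not the same for all members: anti-ENG 2 was the highest tumour for S100A4, S100A6, S100A10, S100A13 and S100A16, and anti-ENG 1 was the lowest for S100A4, S100A8, S100A9, S100A10 and S100A11 but the highest for S100A2.

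**Figure D2:**
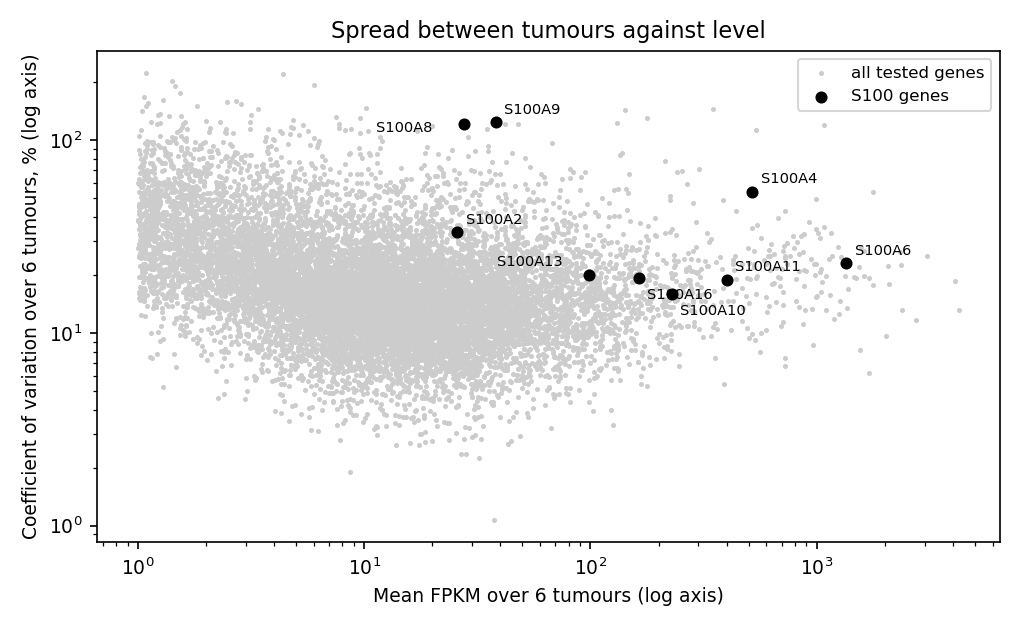
Coefficient of variation over 6 tumours (%, log axis) against mean FPKM (log axis) for the 12586 tested genes in grey and the 9 tested S100 genes in black. S100A8 (122%) and S100A9 (124%) lie near the upper edge of the genes of their level and S100A4 (54.2%) above most abundant genes.

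In the group comparison no S100 gene passed the threshold. With limma on log2(FPKM + 1) and Benjamini-Hochberg adjustment over all 12586 tested genes, 0 of the 9 tested members were called at 0.05, as were 0 genes in all (0%). At an unadjusted p under 0.05 there was 1 member, S100A2, against 9.17% of all tested genes and 5.56% with the anti-ENG tumours higher. Of the 9 members 5 had a higher and 4 a lower estimate in the anti-ENG tumours, with a median log2 fold change of 0.16, where all tested genes had 0.0065. The groups lay apart, with no overlap of their values, for 1 of the 9, again S100A2, against 17.3% of all tested genes and 10.6% with the anti-ENG tumours higher, so neither count stands out from the background. These are bulk samples, in which fewer cells of a type and less RNA per cell cannot be told apart. Unadjusted directions depend on scaling: 700 genes were higher and 454 lower as deposited, 496 and 572 after upper quartile rescaling, and 168 and 1088 with each tumour rescaled to the same sum of FPKM, which moved the median of all genes to -0.10.

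**Figure D3:**
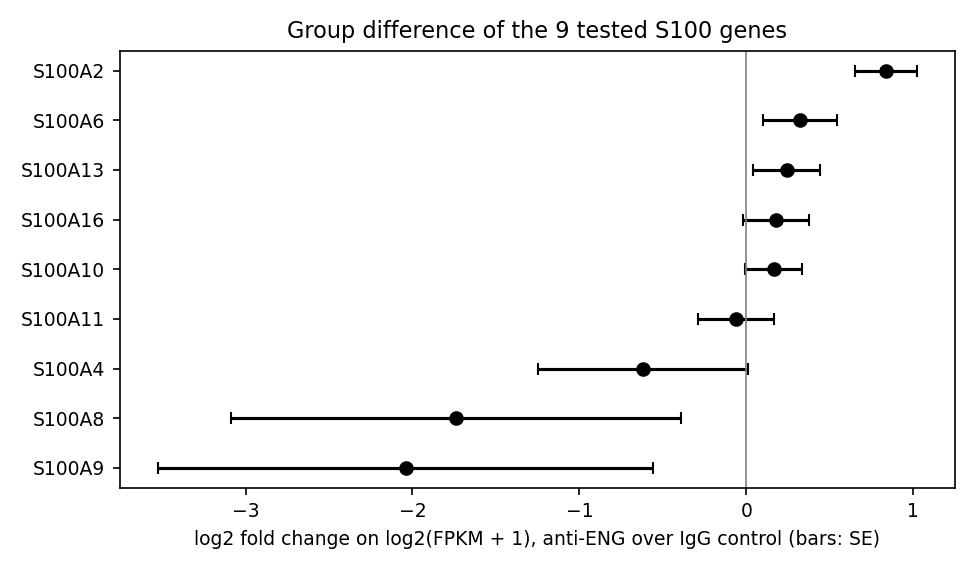
Log2 fold change (anti-ENG over IgG control, on the log2(FPKM + 1) scale) with its SE for the 9 tested S100 genes. S100A2 lies at 0.84 with a small SE, S100A8 and S100A9 have the largest negative estimates with SEs over 1, and no gene passed the adjusted threshold.

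S100A2, a mainly nuclear member known as a target of p63 and as a marker of basal epithelial cells, was the member in which the groups lay apart. It had 35.1, 33.5 and 30.7 FPKM in anti-ENG 1, 2 and 3, against 13.3, 21.3 and 20.8 FPKM in IgG control 1, 2 and 3. Every anti-ENG tumour exceeded every IgG control tumour, and the lowest value was that of IgG control 1. The means were 33.1 ± 2.24 FPKM in the anti-ENG tumours and 18.5 ± 4.51 FPKM in the IgG control tumours (SD, n = 3 each), a 1.79-fold ratio. The log2 fold change was 0.84 (SE 0.18), with a limma unadjusted p of 0.00233 and adjusted p = 0.529. A two-sided exact permutation test gave p = 0.1, the smallest that 3 against 3 tumours allow. The log2 fold change was 0.63 without IgG control 1 and 0.95 without IgG control 2, the ends of its range over the 6 tumours left out in turn. With tumours of 1 code number averaged it was 0.91 (limma unadjusted p = 0.00897, adjusted p = 0.676). TP63, the gene of p63, had 7.46 ± 5.75 FPKM in the anti-ENG tumours and 6.22 ± 0.803 FPKM in the IgG control tumours (SD, n = 3 each), with overlapping groups.

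**Figure D4:**
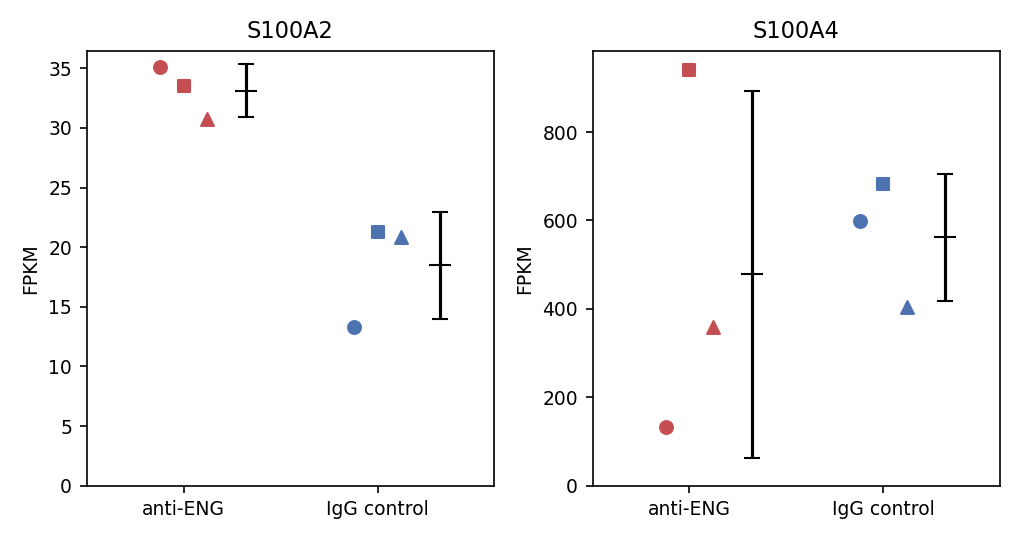
FPKM of S100A2 and S100A4 in each tumour (circles, squares and triangles are tumours 1, 2 and 3), anti-ENG left of IgG control, with mean and SD beside each group. The S100A2 groups do not overlap (30.7 to 35.1 against 13.3 to 21.3 FPKM), while the anti-ENG tumours of S100A4 (134 to 940 FPKM) span the IgG control tumours.

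S100A4, which binds non-muscle myosin and is known for its links to cell motility and metastasis, was the most uneven of the abundant members. It had 134, 940 and 359.9 FPKM in anti-ENG 1, 2 and 3, against 599.8, 682 and 403 FPKM in IgG control 1, 2 and 3. The highest and the lowest tumour were both anti-ENG, 7.03-fold apart, and these bear the same code number in the labels, which do not say whether they came from 1 animal. The means were 478 ± 416 FPKM in the anti-ENG and 562 ± 143 FPKM in the IgG control tumours (SD, n = 3 each), with a log2 fold change of -0.62 and an SE of 0.63 (limma adjusted p = 0.721; exact permutation p = 0.6). Without anti-ENG 1 the log2 fold change was 0.085, so its sign rested on that tumour. The level did not follow that of S100A6: S100A4 was 8.31, 51.3 and 32.7% of S100A6 in the anti-ENG tumours and 57.7, 50.0 and 34.4% in the IgG control tumours. MYH9, the heavy chain of non-muscle myosin that S100A4 binds, had 137 ± 41.8 FPKM in the anti-ENG and 146 ± 27.8 FPKM in the IgG control tumours (SD, n = 3 each).

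S100A6, or calcyclin, which binds annexins and the ubiquitin-ligase adaptor CACYBP, had 1609.9, 1832 and 1101 FPKM in anti-ENG 1, 2 and 3, against 1039, 1364 and 1174 FPKM in IgG control 1, 2 and 3. It ranked 24 of 12586 tested genes by mean. Anti-ENG 1 and 2 lay above all IgG control tumours and anti-ENG 3 lay among them. The log2 fold change was 0.32 (SE 0.22, limma adjusted p = 0.611; exact permutation p = 0.3) and turned to -0.088 with quantile normalization. CACYBP itself had 64.1 ± 8.36 FPKM in the anti-ENG and 45.2 ± 4.71 FPKM in the IgG control tumours (SD, n = 3 each), with groups apart and a log2 fold change of 0.49 (limma adjusted p = 0.529). The log2 ratio of S100A6 over CACYBP was 4.55, 5.05 and 3.96 in the anti-ENG tumours and 4.61, 4.94 and 4.51 in the IgG control tumours, a difference of -0.17 (exact permutation p = 0.8, adjusted over 3 ratios 0.8).

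S100A10 stands apart in the family because it does not need calcium to bind its partner, annexin A2 (ANXA2), with which it forms a complex that takes up plasminogen at the cell surface. It had 192, 289.8 and 248 FPKM in anti-ENG 1, 2 and 3, against 231, 217 and 196 FPKM in IgG control 1, 2 and 3. Anti-ENG 1 was the lowest and anti-ENG 2 the highest of all 6, and the log2 fold change was 0.16 (SE 0.17, limma adjusted p = 0.728), or -0.00020 with quantile normalization. ANXA2 was several times more abundant than S100A10, at 1213, 1234 and 823 FPKM in the anti-ENG tumours and 754, 942 and 704 FPKM in the IgG control tumours, with overlapping groups. The log2 ratio of S100A10 over ANXA2 was -2.65, -2.09 and -1.73 in the anti-ENG tumours and -1.70, -2.11 and -1.84 in the IgG control tumours. The difference was -0.27 (exact permutation p = 0.5, adjusted over 3 ratios 0.75) and -0.022 without anti-ENG 1. Of the 6 plasmin system genes listed, 4 were tested and 0 called. PLAT, the tissue plasminogen activator, had 10.1 ± 0.509 FPKM in the anti-ENG and 14.8 ± 4.83 FPKM in the IgG control tumours, and the receptor gene PLAUR had 60.8 ± 22.0 and 83.6 ± 49.6 FPKM in the same order (SD, n = 3 each).

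S100A11, which also pairs with an annexin (ANXA1), had 274, 461 and 449 FPKM in anti-ENG 1, 2 and 3, against 469.8, 382 and 361 FPKM in IgG control 1, 2 and 3. Apart from anti-ENG 1 the tumours lay within 361 to 469.8 FPKM. The log2 fold change was -0.063 (SE 0.23, limma adjusted p = 0.928), and it was 0.18 without anti-ENG 1 and 0.050 without IgG control 1. S100A16, a broadly expressed member, had 175, 215 and 136 FPKM in the anti-ENG tumours, against 153, 177 and 129 FPKM in the IgG control tumours, with a log2 fold change of 0.18 and an SE of 0.20 (limma adjusted p = 0.743). S100A13 assists the export of FGF1 and IL1A, which lack a signal peptide, and had 111, 127 and 82.8 FPKM in the anti-ENG tumours, against 95.9, 102 and 71.8 FPKM in the IgG control tumours. Its log2 fold change was 0.24 (SE 0.20, limma adjusted p = 0.663), and for both S100A13 and S100A16 anti-ENG 2 was the highest tumour and IgG control 3 the lowest. The S100A13 cargo genes were far lower, with FGF1 at 2.15 ± 1.03 FPKM in the anti-ENG and 3.57 ± 1.12 FPKM in the IgG control tumours and IL1A at 4.11 ± 4.99 and 10.9 ± 13.6 FPKM in the same order (SD, n = 3 each). All 4 genes of that export list had lower estimates and 0 were called, but SPHK1 hardly differed (log2 fold change -0.0049, SE 0.15). SYT1 had a higher mean FPKM in the anti-ENG tumours (1.90 against 1.65). IL1A had 26.6, 1.99 and 4.05 FPKM in IgG control 1, 2 and 3, so its mean there rested on IgG control 1.

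S100A8 and S100A9 form calprotectin, a zinc- and manganese-binding heterodimer that is abundant in neutrophils and monocytes and inducible in stressed epithelium. S100A8 had 1.08, 2.21 and 46.8 FPKM in anti-ENG 1, 2 and 3, against 4.30, 25.0 and 85.5 FPKM in IgG control 1, 2 and 3. S100A9 had 0.562, 3.17 and 63.1 FPKM in anti-ENG 1, 2 and 3, against 5.54, 35.5 and 121 FPKM in IgG control 1, 2 and 3. Both genes put the 6 tumours in the same order, with anti-ENG 1 lowest, then anti-ENG 2, IgG control 1, IgG control 2, anti-ENG 3 and IgG control 3, so high tumours occurred in both groups. From the lowest to the highest tumour the spread was 78.9-fold for S100A8 and 215-fold for S100A9. In 5 tumours the ratio of S100A9 to S100A8 was nonetheless between 1.29 and 1.44, and in anti-ENG 1, where both were lowest, it was 0.518.

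The group means were 16.7 ± 26.1 FPKM in the anti-ENG and 38.3 ± 42.2 FPKM in the IgG control tumours for S100A8, and 22.3 ± 35.3 and 54.0 ± 59.9 FPKM in the same order for S100A9 (SD, n = 3 each). The log2 fold changes were -1.74 (SE 1.35, limma adjusted p = 0.648) and -2.04 (SE 1.49, limma adjusted p = 0.624), with an exact permutation p of 0.4 for each. These differences lay within the spread between tumours. They ranged from -3.14 without anti-ENG 3 to -0.78 without IgG control 3 for S100A8, and from -3.59 without anti-ENG 3 to -0.91 without anti-ENG 1 for S100A9. With tumours of 1 code number averaged they were -0.62 and -0.75. The difference between groups in the log2 ratio of S100A9 over S100A8 was -0.30 (exact permutation p = 0.5, adjusted over 3 ratios 0.75).

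**Figure D5:**
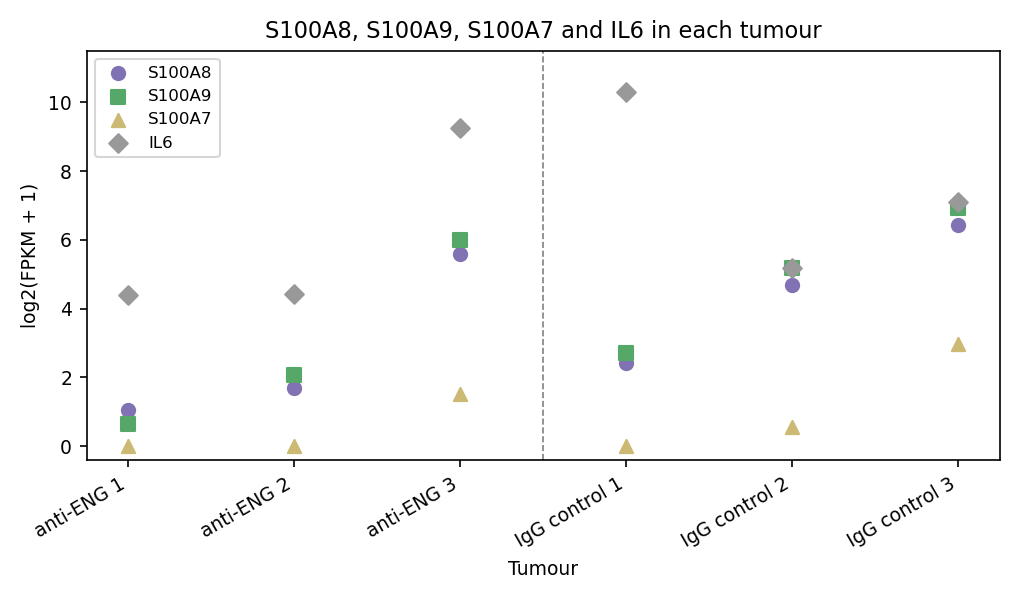
Levels of S100A8, S100A9, S100A7 and IL6 in each tumour as log2(FPKM + 1), anti-ENG tumours left of the dashed line and IgG control tumours right of it. The S100 genes are highest in anti-ENG 3 and IgG control 3, while IL6 is highest in IgG control 1, where S100A8 has 4.30 FPKM.

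S100A7, or psoriasin, a neighbour in the gene cluster that is not among the 10 members, was listed at 0, 0 and 1.89 FPKM in anti-ENG 1, 2 and 3 and at 0, 0.458 and 6.87 FPKM in IgG control 1, 2 and 3. It was thus highest in the same tumours, IgG control 3 and anti-ENG 3, as calprotectin. Inflammatory genes did not share 1 order of tumours. IL6 had 20.2, 20.7 and 609 FPKM in anti-ENG 1, 2 and 3, against 1269, 35.3 and 137 FPKM in IgG control 1, 2 and 3, so the tumour richest in IL6, IgG control 1, held little S100A8. SAA1, an acute-phase protein, had 4.76, 13.4 and 88.6 FPKM in anti-ENG 1, 2 and 3, against 83.0, 22.9 and 94.6 FPKM in IgG control 1, 2 and 3. Its highest tumours were IgG control 3 and anti-ENG 3, as for S100A8, but IgG control 1 was close to them. SAA2 was highest in IgG control 3 (15.2 FPKM), and LCN2, a neutrophil and epithelial lipocalin, in anti-ENG 3 (6.94 FPKM) and then IgG control 3 (4.85 FPKM). Of 19 tested NF-kappaB and acute inflammatory genes, 18 had lower estimates in the anti-ENG tumours and 0 were called (median log2 fold change -0.51). Of all 12586 tested genes, 6148 had lower estimates. The summed level of the listed genes was 910, 1294 and 6949 FPKM in anti-ENG 1, 2 and 3. It was 9565, 1086 and 2832 FPKM in IgG control 1, 2 and 3. The groups thus overlapped, and IgG control 1 alone lay above anti-ENG 3. IL1B had 66.2 ± 95.5 FPKM in the anti-ENG and 219 ± 281 FPKM in the IgG control tumours, and PTGS2 had 2.80 ± 3.73 and 12.7 ± 10.6 FPKM in the same order (SD, n = 3 each). The tested genes whose log2(FPKM + 1) profile was most like the mean of S100A8 and S100A9 over the 6 tumours were GGA3, a sorting adaptor of the Golgi (Pearson r = 0.990), HMHA1, which encodes a minor histocompatibility antigen (0.987), SMARCA4, a chromatin remodelling ATPase (0.986), and FBXW8 of a ubiquitin ligase (0.983). These r are descriptions over 6 tumours, some of which share a code number, and come from a search of all tested genes. Their range was far narrower than that of calprotectin, for GGA3 from 8.65 FPKM in anti-ENG 1 to 12.03 FPKM in IgG control 3.

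Defining markers of the blood cells that carry calprotectin, read as human genes, were at or near 0. CSF3R, MPO, ELANE and FCN1 were listed at 0 in all 6 tumours, and 11 of 18 neutrophil and monocyte markers stayed under 1 FPKM in every tumour. The summed level of the 18 was 109.6 to 181 FPKM in the anti-ENG and 130.1 to 238 FPKM in the IgG control tumours, highest in IgG control 1. Most of it came from CD68, CTSS and VCAN, which other cells also express. Of the 6 tested, 0 were called (median log2 fold change -0.15). The tumours grew in mice, so blood cells of the host are mouse cells. Reads were aligned to the human genome, so RNA of mouse host cells enters these values only where it aligns there. Low marker values therefore cannot show whether such cells were present. The part of mouse RNA in the S100A8 and S100A9 values was not tested. Of 13 keratinocyte and squamous markers, 8 stayed under 1 FPKM in every tumour and the 2 tested were not called. KRT17 had 5.30, 1.96 and 35.6 FPKM in the anti-ENG tumours and 17.4, 17.5 and 32.5 FPKM in the IgG control tumours, and was highest in anti-ENG 3 and IgG control 3. TP63 had 1.33, 12.7 and 8.32 FPKM in the anti-ENG tumours and 6.59, 5.30 and 6.78 FPKM in the IgG control tumours, and was highest in anti-ENG 2, a tumour low in S100A8.

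S100B was all but absent. It was listed at 0, 0.0849 and 0 FPKM in anti-ENG 1, 2 and 3 and at 0.104, 0 and 0 FPKM in IgG control 1, 2 and 3, and it did not enter the test. The ratio of the IgG control 1 value to the anti-ENG 2 value, 1.23, equalled the ratio of depth between these libraries, so both stand for the same small number of fragments. SOX10, another defining gene of Schwann cells, reached at most 0.188 FPKM, and CDH19 was listed at 0 throughout. Of 15 Schwann and neural crest genes 7 were tested, 0 were called, and 6 stayed under 1 FPKM everywhere, while PMP22 had 43.9 ± 1.54 FPKM in the anti-ENG and 43.3 ± 5.48 FPKM in the IgG control tumours (SD, n = 3 each) and PAX3 had 6.61 ± 0.590 and 7.58 ± 1.13 FPKM in the same order. CNP, also on that list, had 19.3 ± 3.84 FPKM in the anti-ENG and 21.1 ± 3.27 FPKM in the IgG control tumours (SD, n = 3 each). Low S100B and SOX10 RNA was thus not shared by the whole list. What it means for the nerve sheath label was not tested. Of 6 melanocyte genes only MITF was tested, with 3.05 ± 0.943 FPKM in the anti-ENG and 1.85 ± 0.483 FPKM in the IgG control tumours (SD, n = 3 each; limma adjusted p = 0.529).

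Among the 11 other S100 genes listed, S100A3 was as abundant as S100A2, with 26.0, 36.4 and 21.5 FPKM in the anti-ENG tumours and 23.6, 24.4 and 19.6 FPKM in the IgG control tumours. Its tumours stood in the same order as those of S100A13. S100A1, S100A5 and S100A7 were the only others averaging 1 FPKM or more, S100A7A and S100A7L2 were listed at 0 throughout, and 0 of the 4 tested were called. S100 genes lie close together and some transcripts overlap, so counting without strand could mix the reads of neighbours. All 7 genes of the epidermal cluster that fuse an S100 domain to repeats, such as FLG, stayed under 1 FPKM in every tumour. The summed level of the 10 members was most closely tracked over 6 tumours by TRIM7 (Pearson r = 0.983), BLVRB (0.979), ZDHHC20 (0.977) and TTLL1 (0.974), again as descriptions.

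Genes of the proteins that S100 members bind went both ways. Of 15 tested intracellular partners 9 had higher and 6 lower estimates in the anti-ENG tumours (median log2 fold change 0.082), 0 were called, and the groups lay apart for CACYBP and STIP1, a co-chaperone, both with the anti-ENG tumours higher. These are 2 of 15, near the 10.6% of all tested genes that lay apart in that direction. STIP1 had 102 ± 5.71 FPKM in the anti-ENG and 77.7 ± 7.14 FPKM in the IgG control tumours (SD, n = 3 each). Of 9 tested receptors for released S100 proteins 5 had higher and 4 lower estimates (median 0.037) and 0 were called. AGER, the receptor RAGE, had 2.87, 4.85 and 2.75 FPKM in the anti-ENG tumours, against 5.04, 4.54 and 5.22 FPKM in the IgG control tumours, with a log2 fold change of -0.43 and an SE of 0.19 (limma adjusted p = 0.529). Its groups overlapped through anti-ENG 2. ALCAM, an adhesion receptor of the immunoglobulin family, had 10.5 ± 3.20 FPKM in the anti-ENG and 6.57 ± 1.33 FPKM in the IgG control tumours (SD, n = 3 each), and was the 1 of 9 receptors with groups apart, again near that share.

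For comparison, 19 tested genes encode proteins with EF-hand folds outside the S100 family, such as calmodulins and myosin light chains. They had a median log2 fold change of 0.17, with 13 higher, 6 lower and 0 called. The groups lay apart for 5 of the 19, against 17.3% of all tested genes: CALM3, SRI, RCN2 and MYL6 with the anti-ENG tumours higher and MYL9 with them lower. MYL9, a light chain of smooth muscle type, had 36.0 ± 12.5 FPKM in the anti-ENG and 54.0 ± 0.571 FPKM in the IgG control tumours (SD, n = 3 each). Fibroblast and mesenchymal markers, among which S100A4 is often counted, had lower estimates in 10 of 12 and 0 calls (median log2 fold change -0.78). Lower estimates were found for 6148 of all 12586 tested genes (median 0.0065). The part of mouse RNA in the marker values was not tested. The summed level of the 12 markers was 2671, 3426 and 3038 FPKM in the anti-ENG and 3664, 3589 and 2704 FPKM in the IgG control tumours. VIM made the largest part of it, with 1941 ± 314 FPKM in the anti-ENG and 1620 ± 269 FPKM in the IgG control tumours (SD, n = 3 each). Unlike 10 of the 12, VIM had a higher estimate in the anti-ENG tumours (log2 fold change 0.26), so the sum joins genes of both directions. PDGFRB had 26.6 ± 3.85 FPKM in the anti-ENG and 54.1 ± 19.5 FPKM in the IgG control tumours (SD, n = 3 each), and was the 1 of 12 with groups apart, against 17.3% of all tested genes. ENG, the antibodies' target, had 15.5, 29.5 and 26.7 FPKM in anti-ENG 1, 2 and 3, against 41.0, 23.9 and 22.1 FPKM in IgG control 1, 2 and 3.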

How the data were processed

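RNA was sequenced from 6 tumours, 3 per group by sample title. The deposited values are FPKM per gene symbol. Per the submitters' processing notes, reads were handled with TopHat2 2.0.10, Cuffnorm and Cufflinks 2.2.1 on GRCh37 (hg19), a human build. Library scaling, strand use and the treatment of mouse reads are not given in the sources used here. Poly(A) RNA was used, per the labels' protocols, with kits and instruments that are not assigned to samples, so a difference in kit or instrument cannot be told apart from treatment. The labels' code numbers are shared by anti-ENG 1 and 2 and by IgG control 2 and 3, each pair bearing the letters L and R. Nothing says that tumours came from separate animals, so p-values measure only the spread between these samples.

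FPKM are not counts and total depth is unknown. Relative depth, from genes at up to 0.05 FPKM in both libraries, was 1.46, 1.23 and 1.14 for anti-ENG 1, 2 and 3 and 1, 1.18 and 1.10 for IgG control 1, 2 and 3. Deposited FPKM summed to between 410786 and 475146 per tumour. Groups were compared with limma 3.58.1 (R 4.3.3) on log2(FPKM + 1), which understates changes of low genes, with a variance trend, in the 12586 genes averaging 1 FPKM or more. P-values are two-sided with Benjamini-Hochberg adjustment and a threshold of 0.05. The fit was tested on simulated data with planted changes and independent noise for each gene and tumour. Recovery by size of change is not reported here, so that test does not show which changes these tumours could reveal. Exact permutation tests over 3 against 3 tumours cannot go below 0.1.

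The family was chosen for study, and the lists and tests were set, with earlier results of these data known, although the rule for its members uses only gene symbols. Named were all members, other S100 genes over 1 FPKM, up to 4 genes of smallest p per list, genes in ratios, ENG, IL6 and the 4 genes most like a profile. LCN2, CALM3, MYL6, MYH9, VIM, SOX10, CDH19, PMP22, CSF3R, MPO, ELANE, FCN1, S100A7A, S100A7L2 and FLG were named after their values were seen. Some genes on the lists are not reported here. Profiles like that of S100B were not sought, since it was at 0 in most tumours. Alternatives covered the pseudocount, filter, scaling, variance model, weights, blocks and tumours left out.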

Additional observations from a re-analysis of the deposited data

How the results depend on the processing

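The count of called genes and of called S100 members was 0 under all 17 alternatives run. At an unadjusted p under 0.05 there were 662 to 1566 genes over these alternatives. S100A2 kept its sign in all 17, with log2 fold changes of 0.58 to 0.95, and its adjusted p ran from 0.377 to 0.831. Estimates that changed sign were those of S100A4 (0.085 without anti-ENG 1, 0.15 without both IgG control 1 and anti-ENG 1), S100A6 (-0.088) and S100A10 (-0.00020) with quantile normalization, and S100A11 (0.10 with array weights, 0.29 without both IgG control 1 and anti-ENG 1). Over single tumours left out S100A4 ran from -1.32 to 0.085, S100A11 from -0.19 to 0.18, and the log2 ratio of S100A6 over CACYBP from -0.43 to 0.11. The cause was not tested. Same-numbered tumours of the groups did not deviate together (correlations of -0.33, 0.19 and 0.037 across genes). Only anti-ENG 2 correlated best with the tumour of its own number in the other group. With the replicate block 0 genes were called, and 842 genes and 3 members had an unadjusted p under 0.05. The members were S100A2, S100A8 and S100A9. The limma unadjusted p was 0.00874 for S100A8 and 0.00395 for S100A9, against 0.236 and 0.209 without the block, so their p depended on it. The block joins tumours by the number in their titles, and the labels do not say that such tumours belong together. The log2 fold changes are the same by construction, 0.84 for S100A2, and the adjusted p was 0.641 for each of these members. Depth limits S100B, where 1 value above 0 per group gives no comparison.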
